A study of Mus musculus with 3 samples.

Results

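The genes described here encode neurotransmitter and amino acid transporters of 4 families, most of whose members work at the plasma membrane, and they were measured in adult mouse dentate gyrus. Members were found by symbol alone, as every Slc1a, Slc6a, Slc7a or Slc38a name that ended in its number. The rule used no measured value, but it was set with earlier results of these data known. The rule found 50 genes among 33101 names with a value, namely 7 of the Slc1a family, 17 of Slc6a, 15 of Slc7a and 11 of Slc38a. All 50 were protein-coding genes, among 20108 protein-coding names in the table. Messenger RNA came from dentate gyri dissected from both sides of adult male C57Black6 mice aged 8 to 10 weeks. The 3 libraries were biological replicates of 1 untreated wild-type group, without a transgene, a deletion or a second condition. The table held 1 column of FPKM for that group, that is, fragments normalised for transcript size and for library depth. No value therefore carried a replicate error, no test was possible, the sequencing depth was unknown, and every comparison below is between genes within this tissue.

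Transmitter released at a synapse is cleared by carriers that use the sodium gradient. Glutamate is taken up mainly by Slc1a carriers of astrocytes, and GABA, glycine, the monoamines, creatine, taurine and proline are taken up by Slc6a carriers. In astrocytes glutamate is turned into glutamine, which leaves and enters cells largely through Slc38a carriers and serves neurons as a precursor of both glutamate and GABA. Slc7a members carry cationic amino acids by themselves or, as light chains joined to a heavy chain of the Slc3a family, exchange larger neutral amino acids, cystine or D-serine.

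The dissected tissue carried the markers of its label. All 4 granule cell markers, led by the synaptic organizer gene C1ql2 at 111 FPKM, were at 43.3 FPKM or more. All 5 astrocyte markers were at 37.9 FPKM or more. Among these, the listed transcripts of Prox1 and Gfap were short, at 0.415 and 0.134 of the longest coding form. Interneuron markers, 5 genes, had a median of 11.5 FPKM. The oligodendrocyte and microglia markers were all above 1 FPKM as well, with medians of 62.7 and 34.1 FPKM. Of 5 endothelial markers, 4 reached 1 FPKM, with a list median of 2.02 FPKM and Pecam1 listed at 0. Of 5 pan-neuronal markers, Tubb3 alone was under 1 FPKM, at 0.158 FPKM. Of 4 choroid plexus markers, Kl and Ttr were at 6.06 and 2.13 FPKM, and Folr1 and Kcne2 were listed at 0. All 4 kidney and gut markers were under 1 FPKM, the highest being Vil1 at 0.106 FPKM.

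Of the 50 transporter genes, 31 reached 1 FPKM (62.0%), against 56.4% of all protein-coding names, and 18 reached 10 FPKM, against 30.8%. Another 9 lay above 0 and under 1 FPKM, and 10 were listed at 0, against 24.1% of protein-coding names. The median member was at 3.87 FPKM and the median protein-coding name at 2.46 FPKM. The share of members at 1 FPKM or more was close to that of protein-coding names in general. Their spread was wide. The 2 highest members carried 45.9% of the summed FPKM of all 50, and the 5 highest carried 65.6%. Values just above the minimum of 1 FPKM were 1.01 FPKM for Slc7a7 and 1.58 FPKM for Slc6a13, and the values just below it were 0.262 FPKM for Slc7a3 and 0.252 FPKM for Slc38a11.

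**Figure D1:**
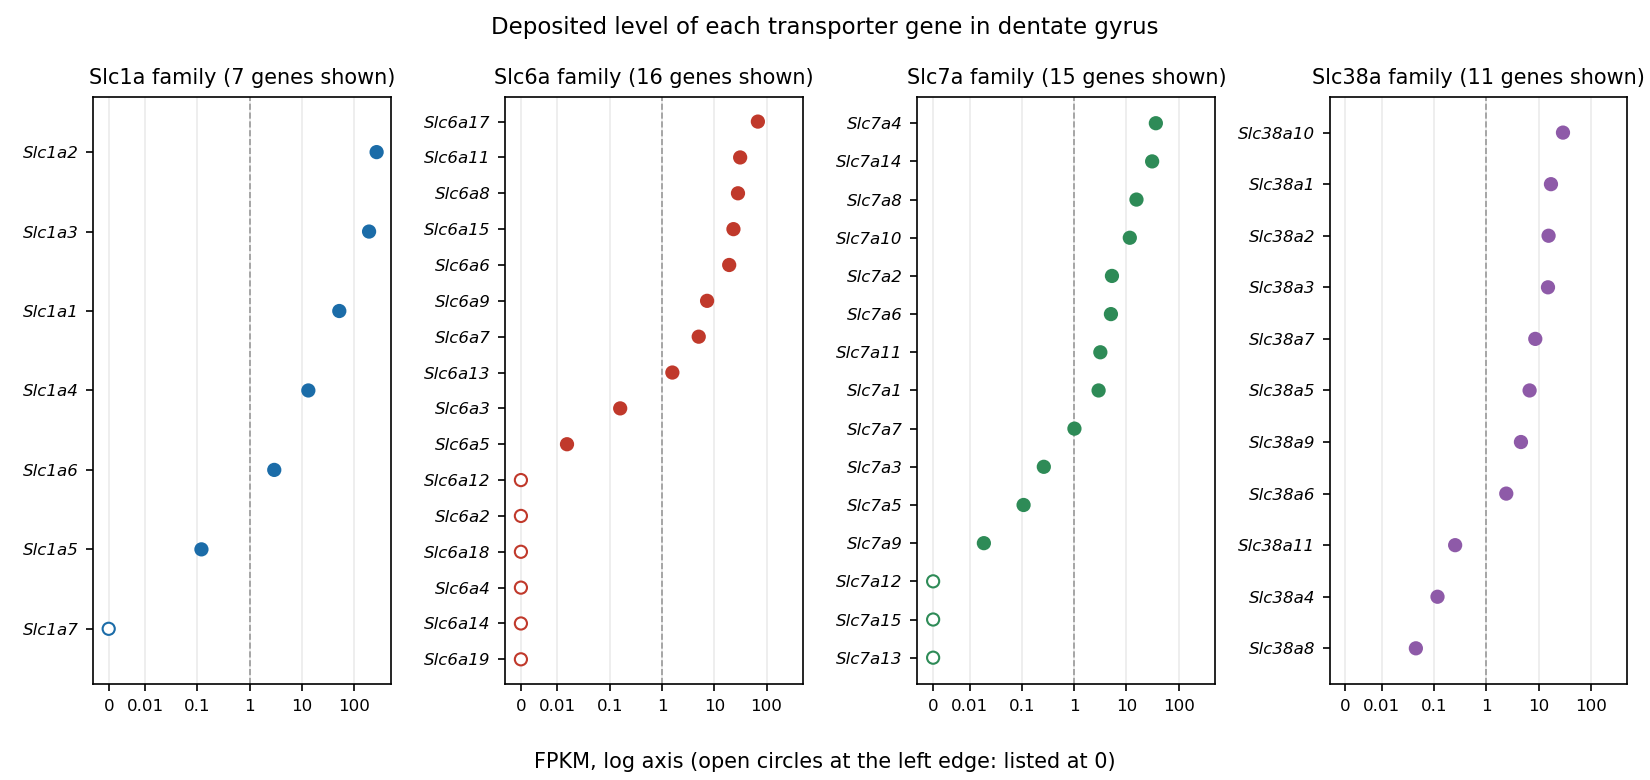
Deposited FPKM of 49 of the transporter genes, 1 panel per family, on a log axis, with 1 point per gene, open circles at the left edge for the 10 genes listed at 0 and a dashed line at 1 FPKM. The points above 50 FPKM are Slc1a2, Slc1a3 and Slc1a1 in the first panel and Slc6a17 in the second.

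Family medians ran from 1.58 to 13.2 FPKM. Slc1a had the highest median at 13.2 FPKM, with 5 of 7 genes at 1 FPKM or more, and Slc38a followed at 6.70 FPKM with 8 of 11. Slc7a had a median of 2.93 FPKM with 9 of 15 genes at 1 FPKM or more, and Slc6a a median of 1.58 FPKM with 9 of 17. The low Slc6a median stood beside high single values, because 6 of its members were listed at 0 and 6 others exceeded 10 FPKM. Without the genes listed at 0 the Slc6a median was 19.3 FPKM and the Slc1a median 32.4 FPKM. No Slc38a gene was listed at 0, and none reached 50 FPKM.

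**Figure D2:**
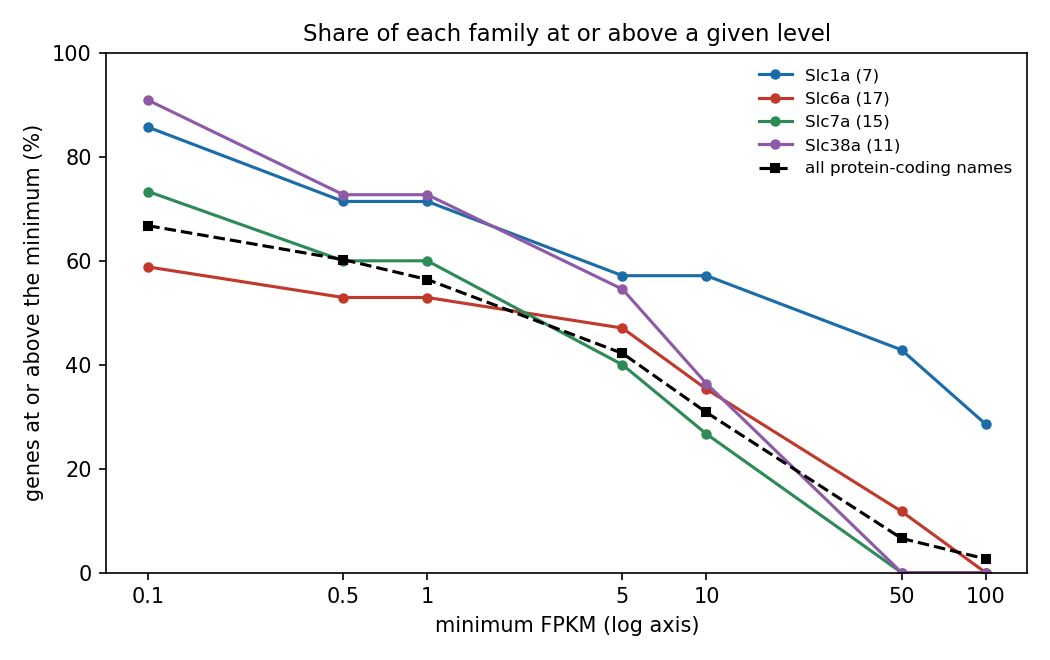
Share of the genes of each family (number of genes in brackets) at or above 0.1, 0.5, 1, 5, 10, 50 and 100 FPKM, with all protein-coding names as a dashed line. Only the Slc1a family had members at 100 FPKM, 2 of 7, and the Slc7a and Slc38a families had none at 50 FPKM.

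Glutamate carriers held the highest values. Slc1a2, the GLT1 carrier that clears most glutamate in forebrain, was at 267 FPKM, at rank 113 among protein-coding names. Its listed transcript spanned 102498816 to 102630941 on chromosome 2 in the mm9 coordinates of the table. Slc1a3, the GLAST carrier of astrocytes and radial glia, was at 192 FPKM, at 8584124 to 8660764 on chromosome 15. Slc1a2 exceeded it by 1.39-fold, a ratio that has no replicate error. The carrier gene of neurons, Slc1a1 (EAAC1), at 28909564 to 28988450 on chromosome 19, was at 51.6 FPKM, and Slc1a2 exceeded it by 5.18-fold. The values sum over all cells of the tissue, and in a bulk sample fewer cells of a type and less RNA per cell cannot be told apart. The cerebellar Purkinje cell carrier gene Slc1a6 (EAAT4) was at 2.94 FPKM, and the retinal carrier gene Slc1a7 was listed at 0.

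Other members of the same family exchange neutral amino acids. Slc1a4 (ASCT1), a carrier of serine and alanine, was at 13.2 FPKM, and its relative Slc1a5 (ASCT2), a glutamine exchanger of dividing cells, was at 0.119 FPKM. The ratio of 111 between them, or 12.7 after 1 FPKM was added to both, rests on a value near 0. The listed transcript of Slc1a5 was among 3 that were not found in GENCODE M21, and a failed estimate and a low level cannot be told apart for it.

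The enzymes and vesicular carriers on either side of these transporters were also abundant in part. Glul, glutamine synthetase of astrocytes, was at 502 FPKM, and the glutaminase gene Gls2, whose product returns glutamine to glutamate, was at 4.37 FPKM. All 8 genes of glutamate, glutamine and GABA turnover reached 1 FPKM, with a list median of 32.4 FPKM and Glud1 lowest at 3.24 FPKM. For Gad1 among them the listed transcript was a 398 nt form, 0.119 of the longest coding one. Among vesicular glutamate transporters, Slc17a7 was at 318 FPKM and Slc17a8 at 0.249 FPKM. The vesicular GABA transporter gene Slc32a1 was at 11.5 FPKM. The mitochondrial glutamate carrier gene Slc25a22 was at 92.2 FPKM, the highest of 12 further amino acid transporters, of which 7 reached 1 FPKM.

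Of the system A and system N genes, 4 of 5 lay between 6.70 and 17.2 FPKM. The system A genes Slc38a1 and Slc38a2, which bring glutamine and alanine into cells with sodium, were at 17.2 and 15.5 FPKM, a ratio of 1.11. The system N gene Slc38a3, whose product lets glutamine out of astrocytes, was at 15.1 FPKM, 2.25 times Slc38a5 at 6.70 FPKM. For Slc38a5 the listed transcript was a 360 nt form, 0.182 of the longest coding one, and for Slc38a1 it was 3183 nt against 7266 nt. Slc38a4, an amino acid carrier of liver and an imprinted gene in mouse, was at 0.116 FPKM.

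Of the other Slc38a members, Slc38a10, at 119965274 to 120012660 on chromosome 11, was highest at 29.1 FPKM. Slc38a7, a glutamine exporter of lysosomes, was at 8.61 FPKM. Slc38a9, the lysosomal arginine sensor of the mTOR pathway, was at 4.58 FPKM as the sum of 2 entries of 2.37 and 2.21 FPKM. The second entry carried another gene identifier, spanned 113523861 to 113525267 on chromosome 13 and lay just past the end of the first at 113523106. Slc38a6 was at 2.40 FPKM, and Slc38a11 and Slc38a8 were under the minimum at 0.252 and 0.0447 FPKM.

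Among GABA carriers, Slc6a11, the GAT3 carrier of astrocytes, at 114081235 to 114199880 on chromosome 6, was at 31.3 FPKM. The leptomeningeal GAT2 carrier gene Slc6a13 was at 1.58 FPKM, and the betaine and GABA carrier gene Slc6a12 was listed at 0. Markers of meninges and fibroblasts had a median of 2.76 FPKM, with Ptgds, which oligodendrocytes also express, highest at 155 FPKM, followed by Dcn at 4.37, Lum at 2.76, Col1a2 at 1.45 and Col1a1 at 0.830 FPKM. Their part in the Slc6a13 value was not tested. Among the GABA enzymes, the transaminase gene Abat was at 42.4 FPKM and Aldh5a1, the next enzyme of GABA breakdown, at 22.3 FPKM.

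Of the glycine carrier genes, 1 was above the minimum of 1 FPKM and the other near 0. Slc6a9, the GlyT1 carrier found mainly in astrocytes, was at 7.29 FPKM, and Slc6a5, the GlyT2 carrier of glycinergic terminals, was at 0.0152 FPKM. Their ratio was 479 as deposited and 8.17 after 1 FPKM was added to both, because the lower value is close to 0. Slc7a10, the Asc1 light chain that exchanges D-serine and glycine, was at 11.6 FPKM. Srr, the racemase that makes D-serine, was at 48.7 FPKM. The glycine receptor beta subunit gene Glrb was at 53.5 FPKM, while the alpha subunit genes Glra2 and Glra3 were at 3.92 and 0.333 FPKM and Glra1 was listed at 0. The listed transcript of Glrb was typed as nonsense-mediated decay and that of Glra3 as a processed transcript, which limits this comparison. The glycine cleavage gene Gldc, expressed in astrocytes, was at 15.1 FPKM.

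Messenger RNA of the monoamine carriers was low in the tissue, and carrier protein was not measured. The noradrenaline carrier gene Slc6a2 and the serotonin carrier gene Slc6a4 were listed at 0, and the dopamine carrier gene Slc6a3 was at 0.159 FPKM. All 5 genes of monoamine synthesis were under 1 FPKM, with the tyrosine hydroxylase gene Th lowest at 0.0210 FPKM and Dbh highest at 0.833 FPKM. The vesicular monoamine transporter genes Slc18a2 and Slc18a1 were at 0.0428 and 0.0314 FPKM.

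**Figure D3:**
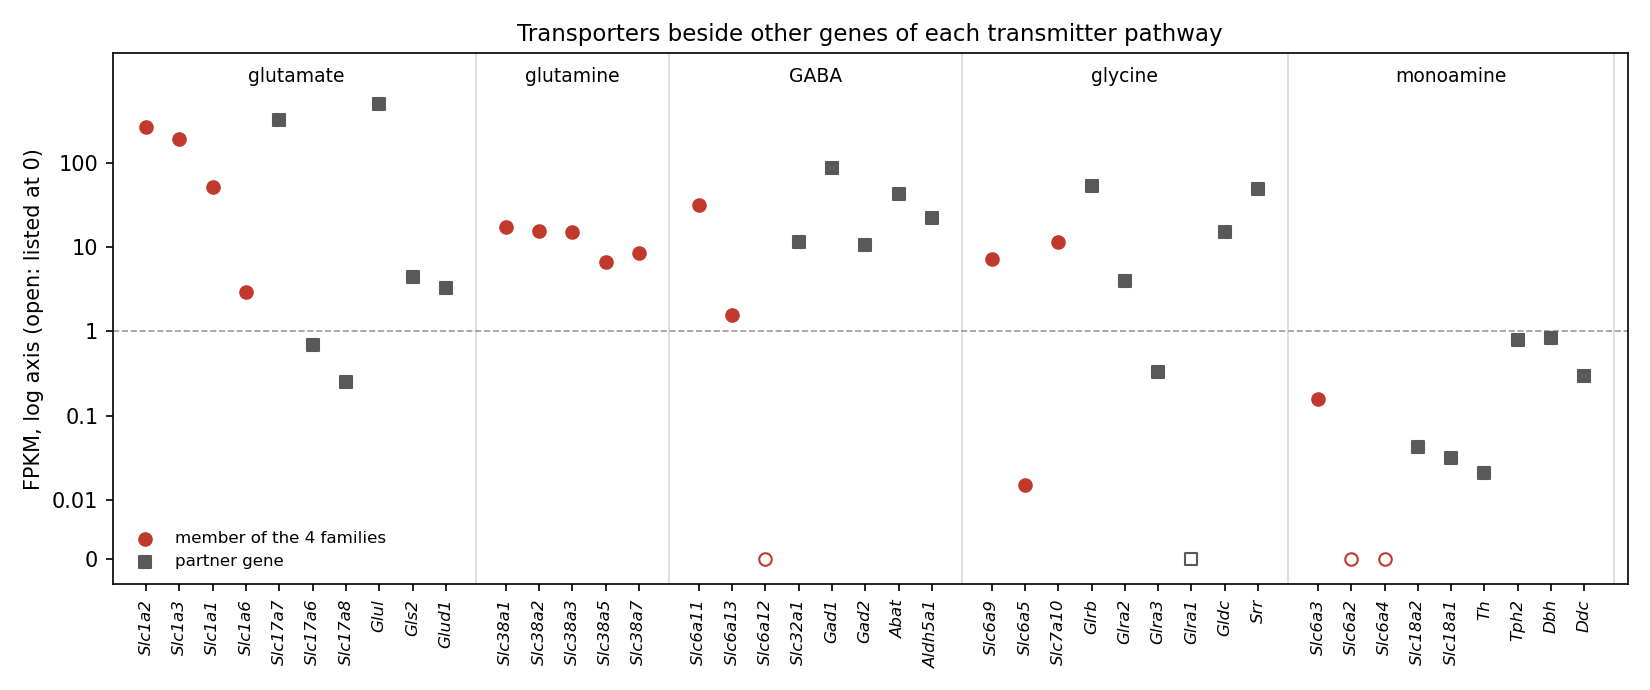
Deposited FPKM, on a log axis, of transporter genes (red circles) and of other genes of the same pathway (grey squares), grouped by transmitter, with open symbols for genes listed at 0 and a dashed line at 1 FPKM. All 9 monoamine genes shown lay under 1 FPKM, and Glul at 502 FPKM was the highest point.

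The creatine and taurine carrier genes were both above 10 FPKM. Slc6a8, the creatine carrier, at 70918489 to 70927841 on the X chromosome, was at 28.4 FPKM, 1.47 times the taurine carrier gene Slc6a6 at 19.3 FPKM. The creatine synthesis genes Gatm and Gamt were at 12.0 and 7.77 FPKM, and Ckb, brain creatine kinase, was at 230 FPKM. The taurine synthesis genes Cdo1 and Csad were at 9.33 and 7.93 FPKM.

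Slc6a members of neurons that carry proline and branched-chain amino acids were all above 5 FPKM. Slc6a17, the NTT4 carrier of synaptic vesicles, was at 68.3 FPKM. It spanned 107270461 to 107320936 on chromosome 3. Slc6a15, which carries branched-chain amino acids and proline into neurons, was at 23.3 FPKM, so that Slc6a17 exceeded it by 2.93-fold. Slc6a7, the proline carrier of glutamatergic terminals, was at 5.05 FPKM. By contrast, the epithelial carrier genes Slc6a14, Slc6a18 and Slc6a19, known from gut, lung and kidney, were all listed at 0.

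Among cationic amino acid carriers and their relatives, the members with no settled substrate at the cell surface were highest. Slc7a4, at 17572111 to 17576814 on chromosome 16, was at 36.5 FPKM. Slc7a14, at 31101832 to 31209300 on chromosome 3, was at 31.0 FPKM. The established arginine and lysine carriers were lower, with Slc7a2 (CAT2) at 5.27 FPKM, 1.80 times Slc7a1 (CAT1) at 2.93 FPKM, and Slc7a3 (CAT3) at 0.262 FPKM. The listed transcript of Slc7a2 was under 0.5 of the longest coding one, and that of Slc7a3 was a retained-intron form. Without these entries the median of the group was 31.0 FPKM instead of 5.27 FPKM.

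Of 10 light chain genes, 5 reached 1 FPKM. Slc7a8 (LAT2), an exchanger of neutral amino acids, was highest at 15.5 FPKM, followed by Slc7a10 at 11.6 FPKM and Slc7a6, an exchanger of cationic against neutral amino acids, at 5.04 FPKM. Slc7a11 (xCT), which releases glutamate in exchange for cystine, was at 3.16 FPKM, and Slc7a10 exceeded it by 3.66-fold. Slc7a7, the relative of Slc7a6 mutated in lysinuric protein intolerance, was at 1.01 FPKM. Slc3a2, the heavy chain shared by most light chains of brain, was at 39.9 FPKM. That exceeded the listed value of each of the 10 light chain genes, of which Slc7a5 has an uncertain one. The kidney heavy chain gene Slc3a1 was listed at 0. The kidney light chain gene Slc7a9 was at 0.0187 FPKM, and Slc7a12, Slc7a13 and Slc7a15 were listed at 0.

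Slc7a5 (LAT1), a light chain of the blood-brain barrier that carries large neutral amino acids, was at 0.108 FPKM, at 124405052 to 124431586 on chromosome 8. Slc7a8 exceeded it by 144-fold as deposited and by 14.9-fold after 1 FPKM was added to both. The listed transcript of Slc7a5 was not found in GENCODE M21, and the value may belong to that transcript or to the gene. As for Slc1a5, a failed estimate and a low level cannot be told apart. Of the endothelial markers, Cldn5 and Ocln were at 7.96 and 7.91 FPKM, above Slc7a5, Flt1 and Tek were at 2.02 and 1.35 FPKM, and Pecam1 was listed at 0.

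Several members lie within 500 kb of each other on a chromosome, and such neighbours were not always alike in level. Slc38a1 and Slc38a2 are 45.4 kb apart on chromosome 15 at nearly equal levels. Slc38a4 lies 295 kb from Slc38a2, with no protein-coding name with a value between them. It was 133-fold lower than Slc38a2 as deposited and 14.7-fold lower after 1 FPKM was added to both. Slc7a9 lies 248 kb from Slc7a10 on chromosome 7, with 4 protein-coding names between them. It was 619-fold lower than Slc7a10, or 12.3-fold lower after the same addition. Both large ratios rest on values near 0. Slc6a18 and Slc6a19, 1.72 kb apart on chromosome 13, were both listed at 0, and Slc6a13 at 1.58 FPKM stood 5.34 kb from Slc6a12, listed at 0. Listed transcripts of members at 1 FPKM or more had a median span of 47.4 kb, and those of the 19 under it a median of 26.5 kb. The same medians over all protein-coding names were not computed.

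The protocol marks no strand, so reads of overlapping genes on opposite strands cannot be told apart. Slc1a1 shares 12693 bases of its span with 4430402I18Rik, listed at 3.81 FPKM, and the transcripts of both match over 1228 nt at 99.9% identity. Slc7a10 overlaps Lrp3, at 25.4 FPKM, by 1278 bases, and Slc7a7 overlaps Oxa1l, at 15.7 FPKM, by 226 bases. The transcript of Slc7a11 holds a stretch of 585 nt with 92.5% identity to the alpha tubulin gene Tuba1b, which was at 147 FPKM. It also matches Tuba1a, at 493 FPKM, over 483 nt at 93.4% identity, and several processed pseudogenes. The division of reads is uncertain for each of these members.

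The study as a whole concerned DNA methylation, whose main target is the CpG dinucleotide, so the CpG content before the transcription starts was set beside the levels. RefSeq windows of 250 bases before a start (GRCm38.p6) were matched by symbol for 34 of 50 members. For 28 of them the start lay within 100 nt of that of the listed transcript, found by its identifier in GENCODE M21. Methylation itself was not analysed here. The 4 windows below show a high gene with few CpG sites, a high gene with many, a gene listed at 0 with many and a gene listed at 0 with few. Capitals mark CpG sites, and each window is written 5′ to 3′ on the strand of its gene.
Slc1a3 (chr15:8710808-8711057, - strand): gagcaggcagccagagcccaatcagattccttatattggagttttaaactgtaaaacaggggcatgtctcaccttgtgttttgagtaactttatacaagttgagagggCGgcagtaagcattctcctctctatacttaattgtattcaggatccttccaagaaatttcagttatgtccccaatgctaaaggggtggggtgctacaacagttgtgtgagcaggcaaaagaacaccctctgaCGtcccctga
Slc1a1 (chr19:28834885-28835134, + strand): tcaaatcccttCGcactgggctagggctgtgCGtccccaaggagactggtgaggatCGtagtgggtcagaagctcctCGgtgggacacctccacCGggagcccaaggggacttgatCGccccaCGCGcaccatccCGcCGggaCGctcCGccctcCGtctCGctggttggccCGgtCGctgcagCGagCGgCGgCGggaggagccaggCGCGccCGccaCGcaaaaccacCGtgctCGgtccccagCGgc
Slc6a4 (chr11:76998347-76998596, + strand): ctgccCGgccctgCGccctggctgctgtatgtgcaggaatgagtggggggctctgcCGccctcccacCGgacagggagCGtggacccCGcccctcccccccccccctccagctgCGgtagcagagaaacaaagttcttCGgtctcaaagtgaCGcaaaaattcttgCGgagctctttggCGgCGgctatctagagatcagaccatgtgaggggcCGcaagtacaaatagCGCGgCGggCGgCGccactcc
Slc6a12 (chr6:121342826-121343075, + strand): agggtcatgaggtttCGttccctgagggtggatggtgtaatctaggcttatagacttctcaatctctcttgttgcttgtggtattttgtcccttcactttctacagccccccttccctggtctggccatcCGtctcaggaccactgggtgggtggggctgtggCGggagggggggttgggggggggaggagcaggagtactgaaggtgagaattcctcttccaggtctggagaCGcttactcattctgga

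Slc1a3, at 192 FPKM, held 2 CpG sites in its window, an observed to expected ratio of 0.160, where the expectation comes from the C and G content. Slc1a1, at 51.6 FPKM, held 27, a ratio of 0.873. The serotonin carrier gene Slc6a4, listed at 0, held 18, a ratio of 0.688, and Slc6a12, also listed at 0, held 4, a ratio of 0.216. The 4 windows were picked to show each combination, so they cannot tell how often each occurs.

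Counted over the 28 members, a window was called CpG-rich at a ratio of 0.6 or more and a GC content of 50% or more. Of 19 members at 1 FPKM or more, 13 (68.4%) had a CpG-rich window, against 66.0% of 5943 names at that level in the whole table. Of 9 members under 1 FPKM, 1 (11.1%) had one, against 16.7% of 5441 names. That member was Slc6a4, and Slc6a3, with a ratio of 0.599, lay just under the limit. The members' shares were thus near those of all names. The other 5 members at 1 FPKM or more without such a window, besides Slc1a3, were Slc7a10, Slc38a7, Slc7a11, Slc6a13 and Slc7a7. The motif TATAAA, searched on both strands, was found in 2 of the 28 member windows (7.14%), those of Slc1a3 and Slc7a15. In the Slc1a3 window it lay on the strand opposite to the gene. Of the 11384 windows of all names, 12.5% held it, with 5.62% at 1 FPKM or more and 20.0% under it.

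**Figure D4:**
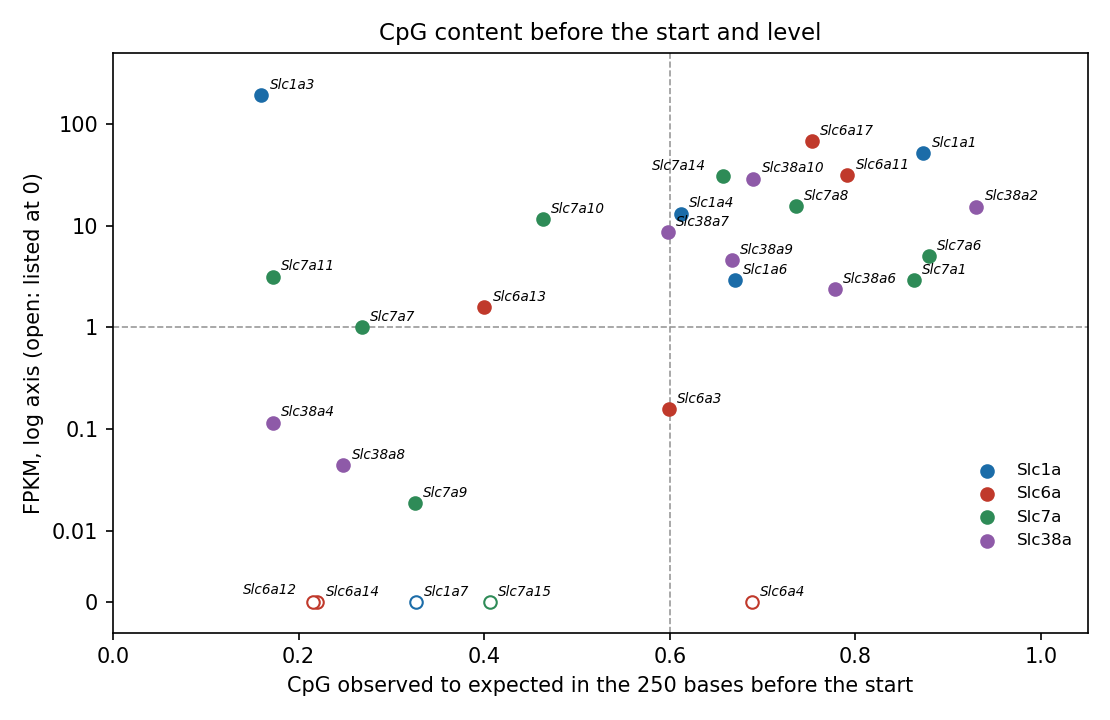
CpG observed to expected ratio in the 250 bases before the start (horizontal axis) and deposited FPKM (vertical log axis) of 28 transporter genes, coloured by family, with open circles for genes listed at 0 and dashed lines at a ratio of 0.6 and at 1 FPKM. Slc1a3 at 192 FPKM stands at the upper left with a ratio of 0.160, and Slc6a4, listed at 0, at the lower right with 0.688.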

How the data were processed

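Per the labels' protocols, libraries were made from fragmented poly(A) RNA with random primers for an Illumina HiSeq2000 run, with no step that marks the strand. The submitters' processing notes name the tools TopHat and Cufflinks, without versions, and as builds mm9 and NCBIM37. The values are FPKM as deposited by the authors, 1 column for 3 libraries, with 36469 of 37681 entries holding a value; how the libraries were joined is not stated there, and depth is unknown. An exact 0 can be a failed estimate, hence the wording that a gene is listed at 0.

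Entries that share a symbol were summed (among members, Slc38a9 only). Starts were converted to 1-based positions. Gene type, transcript type and transcript length came from GENCODE M21 by identifier. Listed transcripts of 47 of 50 members were found there, and 3, Slc1a5 and Slc7a5 among them, were not. Those of Slc38a5, Slc38a1, Slc7a2 and Slc7a3 were noncoding or under 0.5 of the longest coding form. Some partner and marker genes also had listed transcripts not typed as coding or this short, among them Glrb, Glra3, Col1a2, Gad1, Prox1 and Gfap. Windows before starts came from RefSeq. The 16 members without a window included Slc1a5, Slc6a2, Slc6a6, Slc6a7, Slc6a8, Slc6a15, Slc6a18, Slc7a2, Slc7a3, Slc7a4, Slc7a5, Slc7a12, Slc7a13, Slc38a1 and Slc38a3. Windows of Slc1a2, Slc38a5, Slc38a11, Slc6a5, Slc6a9 and Slc6a19 lay at other starts. Similar transcripts were sought with blastn 2.17.0 at 90% identity or more over 300 nt.

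No test across samples was possible, and no p-value is given. Members and lists were chosen with earlier results of these data known; the CpG and overlap steps were chosen after the values were seen. Members are named, with partner genes and markers from fixed lists; 6 of 7 vesicular transporters and 15 of 16 genes of creatine, taurine and glycine metabolism were matched. Other genes are named only where they overlap or resemble a member. Some genes that this rule names are left out of the text. Symbol handling was tested on simulated data. The software was Python 3.11.15, with numpy 2.4.6, pandas 2.3.3 and matplotlib 3.10.9.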

Additional observations from a re-analysis of the deposited data

How the results depend on the processing

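No paired analysis was possible because the table holds 1 value per gene for the group, and libraries could not be left out for the same reason. With no replicate error, a value was taken as unchanged within 1.5 times. Of 98 other settings tried over 29 results, 77 stayed within that range. Without genes listed at 0, the medians were 6.995 FPKM for all members, 32.4 for Slc1a and 19.3 for Slc6a. As geometric means they were 2.26 FPKM for all members, 8.03 for Slc1a, 3.38 for Slc38a and 1.42 for Slc7a. Ratios over values near 0 fell with a pseudocount of 0.1 or 1 FPKM, to 64.2 and 8.17 for Slc6a9 to Slc6a5, to 75.3 and 14.9 for Slc7a8 to Slc7a5, and to 60.7 and 12.7 for Slc1a4 to Slc1a5. The other 9 ratios between transporters of similar role stayed within 1.5 times under both pseudocounts. Keeping the highest entry of a shared symbol gave 2.37 FPKM for Slc38a9. Counts of members at the minimum stayed within 1.5 times at 0.5 and 5 FPKM. Some further settings were chosen after seeing the data. With 1 FPKM added, the ratios between neighbouring members were 14.7 for Slc38a2 to Slc38a4 and 12.3 for Slc7a10 to Slc7a9. With the window farthest upstream, 13 of 22 members at 1 FPKM or more and 2 of 12 under it had a CpG-rich window. These are larger sets than the 19 and 9 members of the main count. Within the main sets, a ratio limit of 0.55 gave 13 of 19 and 2 of 9. A limit of 0.65 gave 12 of 19 and 1 of 9. The shares of all names under these settings were not computed.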

Other observations

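Some genes of the same families bear names outside the rule. Slc6a20a, an imino acid carrier of epithelia and meninges, was at 2.13 FPKM, and its close relative Slc6a20b, next to it on chromosome 9, was at 0.0105 FPKM. With both added to the 17 Slc6a genes the family median stayed at 1.58 FPKM. The entry 1700039E15Rik, which GENCODE M21 names Slc6a21, was at 0.00869 FPKM, and the antisense gene 5430425J12Rik, named Slc6a19os there, was listed at 0. Slc7a6os, named for its position beside Slc7a6, was at 9.72 FPKM against 5.04 FPKM for Slc7a6.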
